A study of Rattus norvegicus with 12 samples.

Results

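Injured rat uterine tissue that had received a bioprinted patch was compared with injured tissue that had received none. The 6 patched libraries were pooled as one group and set against the 3 unpatched libraries, and these 9 of the 12 libraries in the series were chosen by their labels, not by a measured value. Of the patched libraries, 3 came from horns given EEP, a printed endometrial patch that carries cells, and 3 from horns given CP, a control patch of Endo-UdECM printed without cells, each placed 2 days after the injury. The 3 AS libraries came from horns injured by scraping with a needle and given no patch, and the 3 normal libraries gave the uninjured level. All animals were female and 8 weeks old at surgery, and the strain, the cells in EEP and the time from patch to harvest are not given in the sources used here. The horn opposite an EEP horn served as a control or received CP, so libraries of different groups may share an animal. The labels do not tie libraries to animals, and p-values measure the spread between these libraries.

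The uterine wall has an inner endometrium of surface epithelium, glands and stroma, and an outer myometrium of smooth muscle. Endometrium regrows after loss from its deeper layer, and scraping that damages this layer can leave scar tissue that joins the walls, known as intrauterine adhesion. Transcripts were counted at their 3' ends, so a level here is a gene's count relative to its library's total (CPM), scaled between libraries by TMM, and levels were compared between groups and not between genes.

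Markers of uterus, uterine epithelium, stroma and smooth muscle were detected in the series. At least some markers of every other cell type checked were detected too, so detection alone does not bear on the label. Total counts were 4866790 to 8938227 per library. Mitochondrial transcripts took 60.4% ± 22.6 of them in patched libraries and 71.1% ± 3.55 in AS libraries (SD, n = 6 and 3), and a two-sided exact permutation test gave p = 0.548, where the smallest possible p is 0.0119. EEP 1 stood apart with a mitochondrial share of 18.9%, against 53.6% to 82.5% in the other patched libraries. Nuclear counts ran from 1202525 in EEP 3 to 5832552 in EEP 1, and TMM factors from 0.493 in CP 1 to 2.36 in EEP 1. AS 1 stood apart from AS 2 and AS 3 in several gene groups described here. Where leaving out AS 1 changed a gene's printed log2 fold change of patched over AS by over 1.5 times on the log2 scale, both values are given.

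Across 13909 genes tested of 34034 in the table, 1 gene was called in patched against AS tissue, at a Benjamini-Hochberg adjusted p under 0.05 in edgeR's quasi-likelihood test (0.00719% of genes, higher). No gene was called lower. At an unadjusted p under 0.05, 937 genes were higher (6.74%) and 1075 lower (7.73%), and DESeq2 called 415. With no low-count filter 175 were called. The count also moved with EEP 1: without that library 364 genes were called, 122 higher (0.854%) and 242 lower (1.69%). With the mitochondrial share as a covariate 259 were called, and 243 of these were among the 364. The difference between the patches was tested for the same genes, and none was called in EEP against CP (0% in either direction, with 416 genes, 2.99%, at an unadjusted p under 0.05 and 1 gene called by DESeq2).

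A second description does not rest on p-values. It takes the genes whose 6 patched libraries all lay on one side of the 3 AS libraries, with a log2 difference of at least 1 in that direction for EEP against AS and for CP against AS. By this rule 239 genes were higher under both patches (1.72% of those tested) and 268 were lower (1.93%). Of the 239, 43 had at most 3 counts over the AS libraries, against 0 of the 268 and 288 of all 13909 tested. These 43 passed the low-count filter through other groups, so the 2 counts are not like for like. Both patches were set against the same 3 AS libraries, so the rule's 2 differences share their AS values. Just inside the rule stood Ppm1d, with log2 differences of 1.0 in EEP and 1.17 in CP, and Elob, with -1.0 and -1.07. Just outside stood Spata7, with 0.99 and 1.66, and Cct4, with -0.99 and -1.2. Of the 364 genes called without EEP 1, 162 were among the 507 that met the rule, which is 44.5% of the first and 32% of the second.

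Fam111a was the called gene. It encodes a serine protease that acts at DNA replication forks and restricts some viruses in human cells (chromosome 1, 209640865 to 209656551, plus strand, mRatBN7.2). Its level was 77.0, 96.2 and 29.2 CPM in the EEP libraries and 64.1, 85.1 and 36.9 CPM in the CP libraries, against 1.17, 3.26 and 2.37 CPM in AS. Every patched library was thus many times above every AS library. The normal libraries held 77.5, 58.2 and 105 CPM, which overlapped the patched range and lay above every AS library. The log2 fold change of patched over AS was 4.84 (SE 0.521, adjusted p = 4.10e-04 in edgeR), and it lay between 4.56 and 5.23 with any 1 library left out. The adjusted p was at most 0.010 over all alternatives run. The log2 fold changes were 4.90 for EEP and 4.77 for CP over AS, the difference between the patches was 0.12 (SE 0.457, adjusted p = 1.0), and patched over normal was -0.31 (adjusted p = 0.788). Of 13 genes in a list of Fam111a and replication-fork partners, 12 were not called. Lig1, the DNA ligase of replication, had a log2 fold change of 1.02 (adjusted p = 0.225), and Rfc3, a subunit of the clamp loader, one of -0.55 (adjusted p = 0.447). The promoter of Fam111a in RefSeq (GRCr8, chr1:219065389-219065688, plus strand) is shown because it belongs to the one called gene; it held none of the 4 motifs searched, which are named with the ribosomal genes.
Fam111a: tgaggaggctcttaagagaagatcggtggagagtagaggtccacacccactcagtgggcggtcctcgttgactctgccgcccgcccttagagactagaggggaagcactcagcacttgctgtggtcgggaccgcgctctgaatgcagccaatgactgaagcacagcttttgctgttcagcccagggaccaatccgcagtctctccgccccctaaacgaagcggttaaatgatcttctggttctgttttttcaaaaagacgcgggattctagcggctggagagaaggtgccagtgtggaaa

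Among genes higher under both patches, 11 more were named by their p-values. None passed in the full fit (adjusted p from 0.0777 to 0.0993 in edgeR), and all 11 passed without EEP 1 (adjusted p at most 0.0367). None of the 11 passed without AS 1 (adjusted p from 0.0696 to 0.230). Usp6nl, a GTPase-activating protein for the endosomal GTPase Rab5, was at 25, 42.8 and 28.6 CPM in EEP and 45.0, 33.4 and 35.6 CPM in CP, against 9.21, 11.1 and 11.3 CPM in AS. The normal libraries, at 13.6, 11.9 and 11.8 CPM, lay just above AS and below every patched library. The log2 fold change over AS was 1.73 (SE 0.322, adjusted p = 0.0777) and that over normal 1.49 (adjusted p = 0.0814).

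Klhl24, an adaptor of a ubiquitin ligase that turns over keratin, was at 126, 166 and 178 CPM in EEP and 225, 158 and 135 CPM in CP, against 57.3, 41.6 and 55.9 CPM in AS (log2 fold change 1.67, SE 0.327, adjusted p = 0.0848). Its normal libraries, at 110.3, 64.1 and 139 CPM, overlapped the patched ones and not AS. Itgb8, an integrin chain that activates latent TGF-beta, was at 21.9, 10.2 and 5.49 CPM in EEP and 23.6, 12.3 and 6.66 CPM in CP, against 1.34, 0.576 and 2.96 CPM in AS. Like Fam111a it stood near the normal level, with 16.4, 9.61 and 29.2 CPM there (patched over normal -0.46, adjusted p = 0.766). Chst4, a sulfotransferase that makes ligands of L-selectin, went the other way against normal. It was at 30.3, 236 and 105 CPM in EEP and 147, 153 and 105 CPM in CP, against 13.1, 6.52 and 1.78 CPM in AS, and the normal libraries held 13, 0.701 and 27.8 CPM. All 6 patched libraries were above all 6 unpatched ones, with a log2 fold change of 4.17 over AS (SE 0.892, adjusted p = 0.0913) and 3.22 over normal (adjusted p = 0.142).

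The other genes of this group concern vesicle traffic, the cytoskeleton and RNA. Rab11fip1, an effector of the recycling GTPase Rab11, and Ralgapa2, the catalytic subunit of a complex that switches off Ral GTPases, had log2 fold changes of 1.85 and 1.40 over AS. Map7, a cofactor of the motor kinesin-1, and Kif21a, a kinesin, had 2.12 and 2.39. Kif21a stood at 9.46, 7.50 and 12.7 CPM in EEP and 9.80, 12.8 and 9.13 CPM in CP, against 1.67, 0.576 and 3.56 CPM in AS. Marf1, an RNase studied in mouse oocytes, was at 43.5 to 136 CPM in patched libraries against 16.1, 37.8 and 19.6 CPM in AS (log2 fold change 1.88, SE 0.412, adjusted p = 0.0913), and the 3 normal libraries were at 22.8 to 41.8 CPM, below each patched one. Samd1l1 had a log2 fold change of 2.05, and it overlaps Pabpc1 on the same strand, so its counts are uncertain. Map7 likewise overlaps a pseudogene, Map7l-ps1, on its own strand. Spink5 is described with the epithelial genes.

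Of 12 genes named among those lower under both patches, none passed in the full fit (adjusted p from 0.0777 to 0.0913), and all 12 passed without EEP 1 (adjusted p at most 0.0262). Without AS 1 only Il17rb passed (adjusted p = 0.0498), and the others had adjusted p from 0.107 to 0.349. Msrb3, an enzyme that repairs oxidised methionine, had the smallest p-value. It was at 40.4, 82.0 and 57.2 CPM in EEP and 124, 80.9 and 87.5 CPM in CP, against 509, 260.3 and 208 CPM in AS, while normal tissue held 156, 228 and 151 CPM. Patched over AS came to -2.05 on the log2 scale (SE 0.349, adjusted p = 0.0777), and -1.53 without AS 1. Patched libraries thus lay below both AS and normal libraries, with a log2 value of -1.18 against normal (adjusted p = 0.185).

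Lamtor4, a subunit of the Ragulator complex that anchors mTORC1 signalling to the lysosome, was at 46.1, 23.6 and 19.1 CPM in EEP and 38.7, 30 and 25.5 CPM in CP, against 134, 82.7 and 72.7 CPM in AS (log2 fold change -1.66, SE 0.311, adjusted p = 0.0777). Tgfb1i1, the focal adhesion protein Hic-5 of smooth muscle and myofibroblasts, was at 45.4, 18.5 and 19.7 CPM in EEP and 24.1, 26.0 and 22.5 CPM in CP, against 91.8, 62.9 and 80.8 CPM in AS (-1.59, SE 0.300, adjusted p = 0.0777). The highest patched library was EEP 1 for both genes, and it lay under the lowest AS library. Il17rb, a receptor chain for interleukin-25, was at 0.828, 1.2 and 0 CPM in EEP and at 0 in all 3 CP libraries, against 5.36, 10.7 and 22.5 CPM in AS and 1.48, 7.71 and 6.33 CPM in normal tissue. Its patched libraries held 22 counts in all, and it overlaps Actr8 on the opposite strand.

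The remaining genes of this group have general cell functions. Txn1, the redox protein thioredoxin, was at 54.8 to 149.6 CPM in patched libraries, against 750.0, 218 and 216 CPM in AS, and its log2 fold change was -1.86 with all libraries and -0.96 without AS 1. Ndufv2, a subunit of respiratory complex I, was at -1.88 with all libraries and -0.96 without AS 1. Cnih1, a cargo receptor for export from the endoplasmic reticulum, had -1.60, and Atp5f1d, a subunit of ATP synthase, -1.51. Rps2 and Rpl8, Tpm2, and Tuba1a belong to the groups described next.

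**Figure D1:**
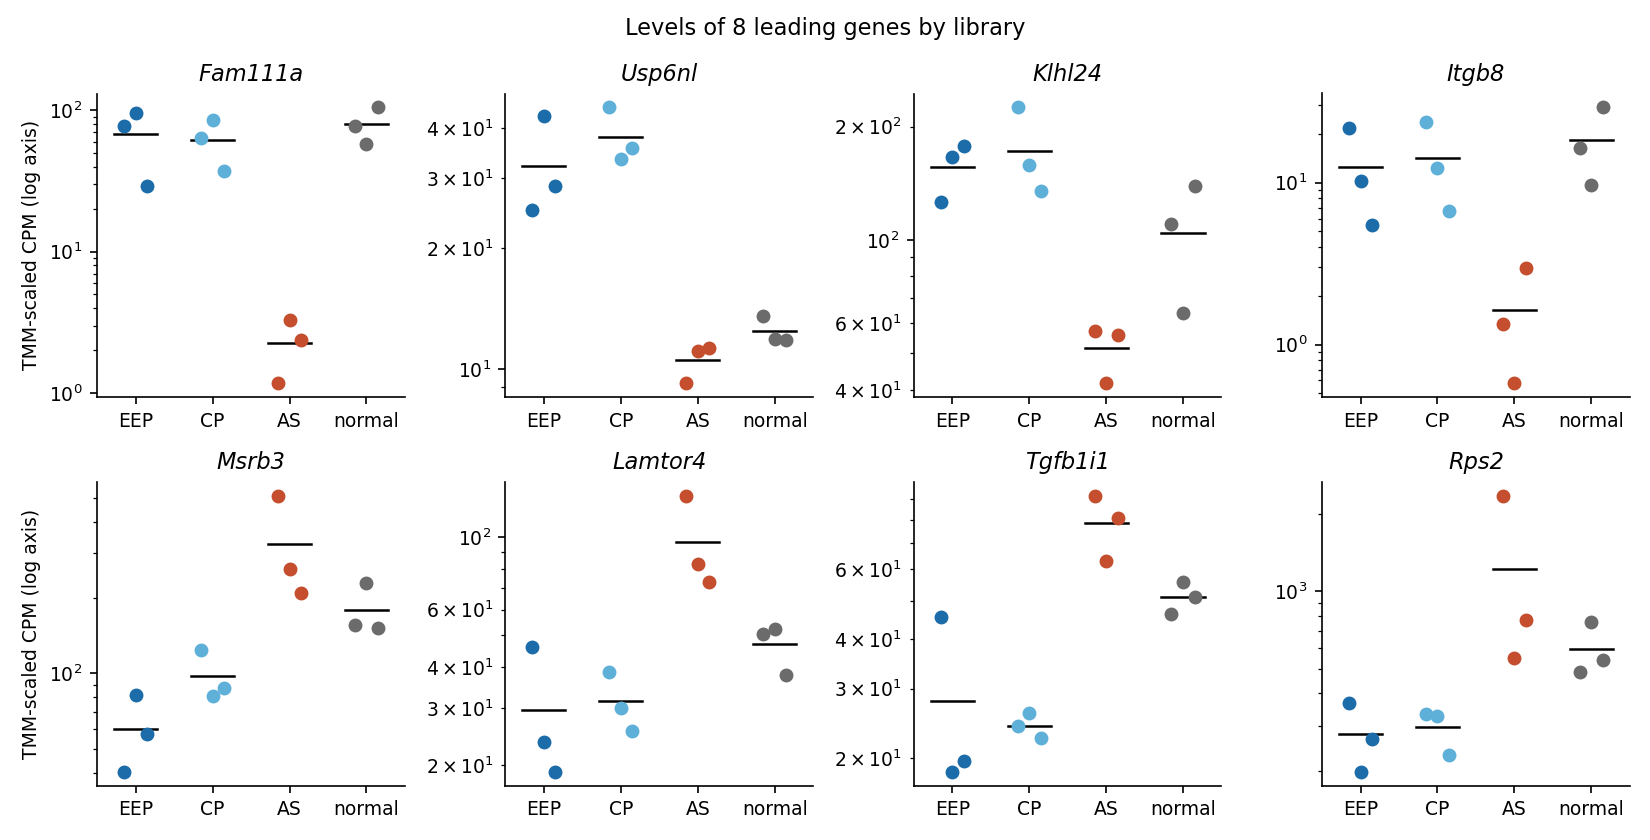
Level of 8 genes in each library, in TMM-scaled CPM on log axes, with 1 point per library and a bar at the mean of each group of 3. In the upper 4 genes every EEP and CP library lies above every AS library, and in the lower 4 below it; normal libraries lie with the patched ones for Fam111a and Itgb8, with AS for Usp6nl, and between the groups for Tgfb1i1.

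Genes of the translation machinery and of the respiratory chain were lower under both patches. Of 28 cytosolic ribosomal proteins in a list of subunits of the small and large ribosome, all 28 were lower in patched than in AS tissue, and the median log2 fold change was -1.06, against 0.03 over all genes tested. The medians were -1.08 in EEP and -1.01 in CP over AS. None was called in the full fit (0% lower over all genes). Without EEP 1, 7 were called, against 1.69% of all genes called lower in that fit. DESeq2 called 15 of the list, and 253 genes lower over all 13909 tested. By the rule on separation 9 of the 28 were lower under both patches, 32.1%, against 1.93% of all genes. The mean log2(CPM + 1) over the list was 8.30, 7.42 and 8.14 in EEP and 8.13, 8.21 and 7.89 in CP, against 9.65, 8.65 and 8.71 in AS and 8.59, 8.90 and 8.53 in normal tissue. Every patched library was below every unpatched one, and AS 1 was far above the other AS libraries. Without AS 1, 27 of the 28 were lower, none was called and the median was -0.54, with a median of 0.14 over all genes in that fit. Against normal tissue all 28 were lower, with a median of -0.71 and none called.

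Rps2, a protein of the small subunit, had the smallest p-value of the list. It was at 368, 198 and 266 CPM in EEP and 332, 326 and 231 CPM in CP, against 2354, 548 and 773 CPM in AS and 486, 758 and 539 CPM in normal tissue. The log2 fold change was -2.09 (SE 0.383, adjusted p = 0.0777), and -1.16 without AS 1. Rps6, the small-subunit protein phosphorylated by S6 kinase, was at 337, 302 and 358 CPM in EEP and 458, 465 and 335 CPM in CP, against 1697, 687 and 633 CPM in AS (-1.42, SE 0.329, adjusted p = 0.0993, and -0.77 without AS 1). Rpl8, a protein of the large subunit, was at 27.6 to 68.8 CPM in patched libraries, against 164, 92.9 and 148 CPM in AS (-1.54, SE 0.313, adjusted p = 0.0848). Processed pseudogenes resemble many ribosomal protein genes, and how reads that match several places were counted is not given in the sources used here. In families taken from symbols after the values were seen, 78 of 80 cytosolic ribosomal proteins were lower (median -0.95) and 64 of 73 mitochondrial ribosomal proteins (median -0.65).

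The nuclear genes of the respiratory chain, whose products make ATP by oxidative phosphorylation in mitochondria, had the same pattern. All 25 in the list were lower in patched than in AS tissue, with a median of -1.14 (-1.03 in EEP and -1.09 in CP). No member was called in the full fit, and 6 met the rule on separation (24.0%, against 1.93% of all genes). Without EEP 1, 11 were called, against 1.69% of all genes called lower in that fit. Ndufb8, of complex I, was at 127, 89.2 and 88.7 CPM in EEP and 94.3, 111 and 117 CPM in CP, against 498, 173 and 174 CPM in AS and 218, 218 and 169 CPM in normal tissue. No patched library reached the lowest AS or normal one (log2 fold change -1.43, SE 0.326, adjusted p = 0.0993), and the value was -0.68 without AS 1. Uqcrc2, a core subunit of complex III, was at 33.0, 14.3 and 12.7 CPM in EEP and 18.6, 24.5 and 18.3 CPM in CP, against 74.3, 35.9 and 46.4 CPM in AS (-1.36, SE 0.328, adjusted p = 0.102). Ndufb9, of complex I, had a log2 fold change of -1.84 (adjusted p = 0.0922), or -0.89 without AS 1, and its counts may include those of Tatdn1, which overlaps it on the other strand. Without AS 1 all 25 were still lower, with a median of -0.54 and none called. Against normal tissue all 25 were lower, with a median of -0.81. In families taken from symbols after the values were seen, all 38 Nduf genes, all 8 Uqcr genes and all 18 Atp5 genes were lower than in AS, with medians of -0.87, -1.08 and -1.0.

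The 13 protein genes of the mitochondrial genome, counted apart from these, were not called. Their median over AS was -1.07 in EEP and -0.23 in CP. COX1, of complex IV, ranged from 2615 CPM in EEP 1 to 37662 CPM in CP 1 among patched libraries, against 49549, 29106 and 24690.2 CPM in AS (log2 fold change -0.95, SE 0.570, adjusted p = 0.470, and -0.55 without AS 1). Against normal tissue all 13 were higher, with a median of 1.07 and none called, while the nuclear genes of the same chain were lower. The mean log2(CPM + 1) over the 13 was 10.76, 12.85 and 14.16 in EEP and 14.56, 13.52 and 13.83 in CP. It was 12.98, 12.62 and 12.33 in normal tissue, so EEP 1 lay below the normal range and EEP 2 inside it.

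Promoters of the lower groups were read from RefSeq (GRCr8), from 250 bases before to 50 after each gene's start, for the letters CCGGAAG (the core of ETS factor sites), AAGATGG (of YY1) and TATAAA (the TATA box) and for the CArG box of serum response factor, on both strands. The ETS letters stood in 20 of 64 promoters of cytosolic ribosomal proteins (31.2%) and 9 of 22 of the respiratory chain list (40.9%), against 17.0% of the tested genes with a promoter in the table. They stood in 21.3% of promoters of genes lower under both patches and in 10.9% of those higher under both. The YY1 letters stood in 12.4% of the first, 7.65% of the second and 8.14% of the tested genes. The TATA letters stood in 8.00% of the first, 10.9% of the second and 7.36% of the tested genes, and the CArG box in 1.33%, 1.64% and 1.38%. None of the 4 motifs was in the 14 smooth muscle promoters in the table. A match of letters is a description of these windows and no evidence of binding. The promoters of Rps2 (chr10:14251598-14251897, plus strand), Rps6 (chr5:106420491-106420790, minus strand) and Uqcrc2 (chr1:184598990-184599289, plus strand) are shown as members with ETS matches, each 5' to 3' along its gene, with the ETS and YY1 letters in capitals. Counted from the gene's start, the ETS match begins at base -186 in Rps2 and at base -129 in Rps6. Uqcrc2 has ETS matches at -117 and -28 and a YY1 match at -19.
Rps2: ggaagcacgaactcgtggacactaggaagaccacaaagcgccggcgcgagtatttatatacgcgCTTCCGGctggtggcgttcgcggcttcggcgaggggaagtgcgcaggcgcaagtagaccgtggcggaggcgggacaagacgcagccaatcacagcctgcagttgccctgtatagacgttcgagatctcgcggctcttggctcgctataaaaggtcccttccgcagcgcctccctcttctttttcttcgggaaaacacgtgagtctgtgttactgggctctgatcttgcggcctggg
Rps6: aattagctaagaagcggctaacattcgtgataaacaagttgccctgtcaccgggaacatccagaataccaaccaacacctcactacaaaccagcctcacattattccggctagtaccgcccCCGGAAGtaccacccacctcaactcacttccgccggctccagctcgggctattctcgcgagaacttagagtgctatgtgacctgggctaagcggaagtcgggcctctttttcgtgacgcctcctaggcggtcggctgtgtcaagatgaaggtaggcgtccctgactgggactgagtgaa
Uqcrc2: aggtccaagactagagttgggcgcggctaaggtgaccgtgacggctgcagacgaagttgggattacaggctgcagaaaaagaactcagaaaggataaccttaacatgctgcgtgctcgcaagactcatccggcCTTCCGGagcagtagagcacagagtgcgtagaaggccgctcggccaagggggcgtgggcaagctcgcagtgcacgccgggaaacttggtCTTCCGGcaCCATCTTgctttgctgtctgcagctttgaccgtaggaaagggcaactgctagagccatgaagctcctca

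Contractile genes of smooth muscle were lower under both patches as well. All 20 in the list were lower in patched than in AS tissue (median -0.75), 20 in EEP (median -1.09) and 17 in CP (median -0.65). None was called in the full fit. Without EEP 1, 7 were called, against 1.69% of all genes called lower in that fit. Tpm2, the beta-tropomyosin of thin filaments, was at 266, 318 and 179 CPM in EEP and 363, 282 and 549 CPM in CP, against 1757, 775 and 886 CPM in AS and 589, 704 and 512 CPM in normal tissue (log2 fold change -1.80, SE 0.349, adjusted p = 0.0848). All 6 patched libraries were below AS, and CP 3 lay within the normal range. Myl9, a regulatory light chain of myosin, was at 241, 105 and 78.0 CPM in EEP and 164, 181 and 140.2 CPM in CP, against 788, 365 and 312 CPM in AS and 331, 416 and 313 CPM in normal tissue (-1.69, SE 0.358, adjusted p = 0.0913, and -1.11 without AS 1). Mylk, the kinase that switches on contraction, was at 527, 457 and 369 CPM in EEP and 376, 358 and 473 CPM in CP, against 929, 909 and 946 CPM in AS and 889, 1281 and 732 CPM in normal tissue. Its AS libraries were nearly equal, and patched over AS came to -1.12 on the log2 scale (SE 0.279, adjusted p = 0.117), and to -1.03 or lower with any 1 library left out.

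Of the list, 6 genes met the rule on separation (30%, against 1.93% of all genes). These were Tpm2, Myl9 and Mylk with Cnn1 (calponin), Tagln (transgelin) and Tpm1 (alpha-tropomyosin), of which the last 3, like Myh11 next, were named after their values were seen. Myh11, the smooth muscle myosin heavy chain, stood at 368 to 807 CPM in patched libraries, against 952, 1066 and 1138 CPM in AS, with a smaller log2 fold change of -0.73 (adjusted p = 0.283). The summed CPM of the markers Acta2, Myh11, Cnn1 and Des was 978 to 1683 in EEP and 1333 to 2127 in CP, against 2558 to 3765 in AS and 2267 to 2483 in normal tissue. In whole tissue, fewer cells of a type and less RNA per cell cannot be told apart. The labels title the samples Endometrium while the design text speaks of uterine tissue, so how much muscle layer each sample held is not known, and its part in these values was not tested. Without AS 1, 19 of 20 were lower, none was called and the median was -0.78. Against normal tissue 17 of 20 were lower (median -0.65), and none was called.

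Tubulins, the subunits of microtubules, were a family noticed in the values. All 10 alpha and beta tubulins tested were lower in patched than in AS tissue, with medians of -1.74 in EEP and -1.31 in CP. Tuba1a was at 72.2, 44.4 and 51.4 CPM in EEP and 33.9, 97.2 and 119.9 CPM in CP, against 436, 205 and 205 CPM in AS and 96.5, 176 and 55.9 CPM in normal tissue (log2 fold change -2.01, SE 0.413, adjusted p = 0.0913). Patched libraries were below AS and within or under the range of normal tissue. Near-identical tubulin genes may share reads, so values of single members are uncertain. The family's median was -1.44 with all libraries and -0.76 without AS 1.

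**Figure D2:**
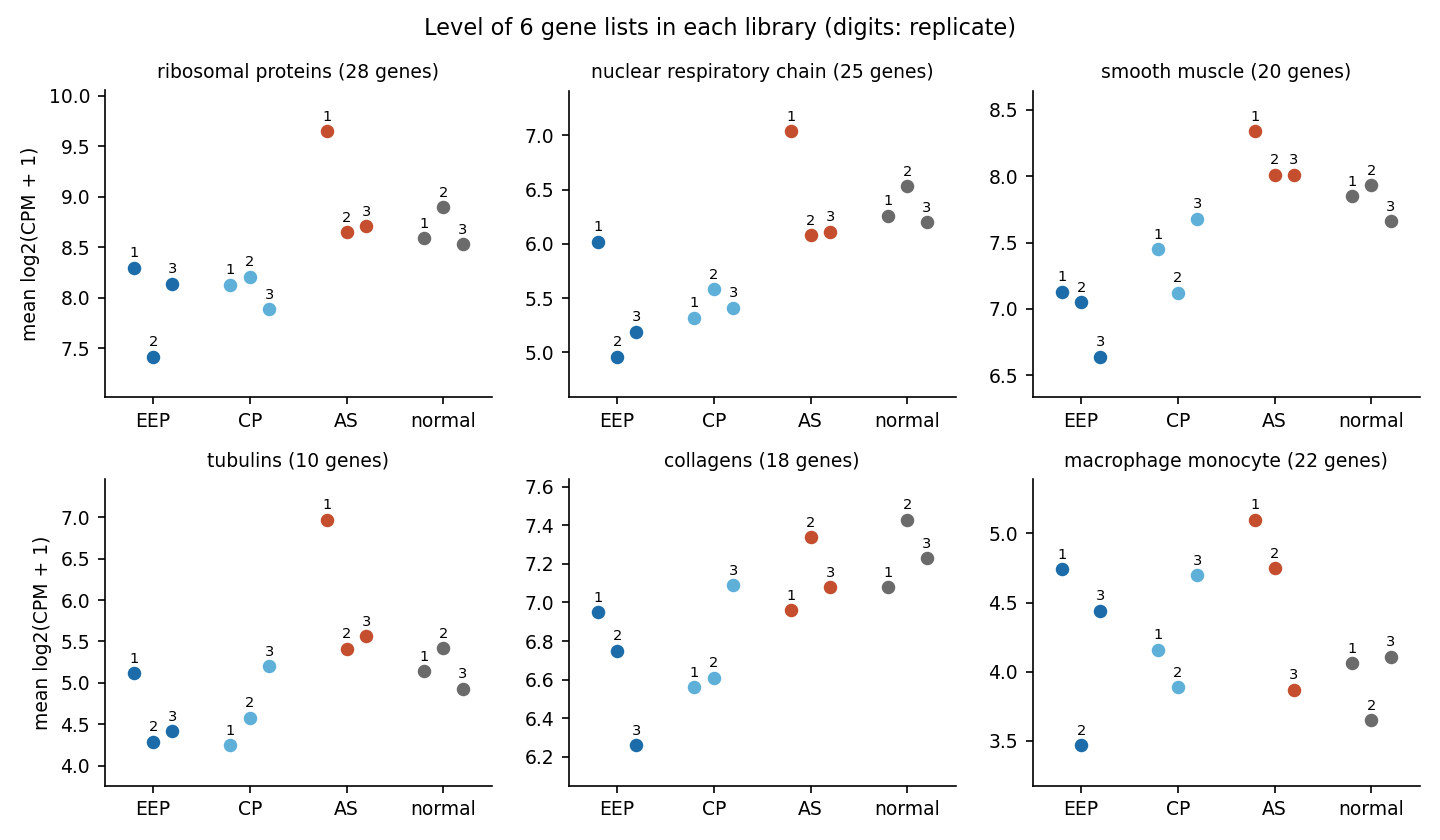
Mean log2(CPM + 1) over the tested members of 6 gene lists in each library, with the replicate number above each point. For ribosomal proteins, the respiratory chain, smooth muscle and tubulins every patched library lies below the 3 AS libraries, AS 1 is highest in these 4 lists, and collagens and macrophage markers overlap between groups.

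Matrix and immune genes gave no call in patched against AS tissue. Of 18 collagens 16 were lower (median -0.35, and -0.45 against normal tissue), and none met the rule on separation. Col5a1, a fibril collagen, was at 85.8 to 235 CPM in patched libraries, against 302, 249 and 216 CPM in AS (log2 fold change -0.72, adjusted p = 0.296). Lum, the stromal proteoglycan lumican, had -0.75 over AS (adjusted p = 0.304) and -1.39 over normal (adjusted p = 0.106). Mmp14, a membrane protease that cleaves collagen, was at 139.8, 1242 and 1328 CPM in EEP and 501, 805 and 1128 CPM in CP, against 147, 412 and 548 CPM in AS. EEP 1 lay under all 3 AS libraries and CP 1 inside their range, and the log2 fold change was 1.22 (adjusted p = 0.321), or 1.44 without EEP 1 (adjusted p = 0.0643). Mmp11, stromelysin-3, had 1.49 (adjusted p = 0.218).

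Of 22 macrophage and monocyte markers 18 were lower in patched than in AS tissue (median -0.33), and 18 were higher than in normal tissue (median 0.43). Fcer1g, a signalling adaptor of immune receptors, was at 26.6 to 87.3 CPM in patched libraries, against 300.2, 153 and 58.1 CPM in AS (log2 fold change -1.44, SE 0.416, adjusted p = 0.144, and -0.70 without AS 1), with AS 3 inside the patched range. Without AS 1, 14 of the 22 were lower (median -0.23). The interferon response list was close to AS (16 of 26 higher, median 0.13) and above normal tissue (24 of 26 higher, median 1.29). In neither comparison was an interferon gene called. The hemoglobin genes rested on 1 library: Hba-a1 was at 205 to 461 CPM in patched libraries, against 1834, 119.9 and 242 CPM in AS. Its log2 fold change was -1.13 with all libraries and reversed to 0.93 without AS 1.

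The MHC class II chains of the same molecule differed in direction. RT1-Bb, a beta chain, was at 7.57, 33.6 and 35.3 CPM in EEP and 12.1, 31.1 and 26.8 CPM in CP, against 3.68, 9.02 and 3.95 CPM in AS, while normal tissue held 13.5, 21.0 and 11 CPM. Patched over AS came to 2.13 on the log2 scale (SE 0.532, adjusted p = 0.117), and it passed without EEP 1 (2.32, adjusted p = 0.0239). It did not pass without AS 1 (1.95, adjusted p = 0.292). RT1-Ba, its alpha chain, had -1.04 (adjusted p = 0.258). It had -1.43 without EEP 1 (adjusted p = 0.0309) and -0.42 without AS 1. The difference between the chains was not tested, and reads of similar MHC genes may be split between copies.

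Genes of stratified epithelium differed in direction. The list holds 21 genes of skin-type epithelium, of which 8 passed the low-count filter, 6 higher and 2 lower in patched than in AS tissue. Members detected mainly in patched libraries, Spink5 and Krt5 among them, passed the filter through that group, so these counts support no direction. The lower members, named after their values were seen, were Krt10, a keratin of differentiated layers, and Sprr1a, a cornified envelope protein. Krt10 was at 0.251 to 5.20 CPM in patched libraries, against 10.4, 6.91 and 5.53 CPM in AS, and met the rule on separation. Sprr1a was at 0 to 22.4 CPM in patched libraries, against 102, 0 and 2.96 CPM in AS. The mean log2(CPM + 1) over the 8 genes was 2.69 to 3.91 in EEP and 1.22 to 2.66 in CP, against 2.32, 0.49 and 0.97 in AS, so AS 1 lay above CP 1 and CP 2. Spink5 encodes an inhibitor of skin proteases. Its level was 29.6, 38.1 and 41.6 CPM in EEP and 0.251, 4.20 and 8.94 CPM in CP, against 0, 0 and 0.198 CPM in AS and 0.527, 0.300 and 0.768 CPM in normal tissue. Its 972 patched counts stood against 1 count in AS, a pooled ratio of 374 with a 95% counting interval of 67.0 to 14784. Krt5, a basal-layer keratin, stood at 27.4, 17.1 and 11 CPM in EEP and 0, 8.90 and 5.33 CPM in CP, and at 0 in AS. With 3 counts over the AS group as the floor it was at least 89.4-fold higher. CP 1 lay at the AS level for Krt5. For Spink5, CP 1 at 0.251 CPM and AS 3 at 0.198 CPM both lay under 3 counts (0.754 and 0.593 CPM). Their order is therefore not resolved, and Spink5 met the rule on separation through this small difference. Every EEP library was above every CP library for both genes. Krt15, another basal keratin, was at 64.7, 52.2 and 39.3 CPM in EEP and 4.78, 17.5 and 22.3 CPM in CP, against 8.71, 0.192 and 0.198 CPM in AS (log2 fold change 3.43, adjusted p = 0.190, and 7.36 without AS 1).

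The simple epithelium of the uterus had no common direction with all libraries. Of 18 luminal epithelial genes 8 were higher and 10 lower than in AS, none called. The mean log2(CPM + 1) over the list was 6.10, 3.94 and 3.15 in EEP and 5.40, 4.37 and 3.67 in CP. It was 6.06, 2.66 and 3.40 in AS. AS 1 thus lay far above AS 2 and AS 3, and the list's counts without AS 1 are not given. Muc1, a surface mucin, was at 34.9, 10.1 and 5.49 CPM in EEP and 19.9, 20.5 and 8.56 CPM in CP, against 9.88, 1.15 and 2.57 CPM in AS (log2 fold change 1.86, adjusted p = 0.238, and 3.20 without AS 1). Sox9, a transcription factor of gland and progenitor cells, was at 28 to 60.1 CPM in patched libraries, against 32.1, 7.10 and 11.5 CPM in AS and 15.8, 1.2 and 18.4 CPM in normal tissue (1.52, SE 0.606, adjusted p = 0.271, and 2.43 without AS 1). For both genes AS 1 overlapped the patched range. The sum of the markers Krt8, Krt18, Krt19, Epcam and Cdh1 was 120.2 to 975 CPM in EEP and 133 to 488 CPM in CP, against 66.2 to 1866 CPM in AS.

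Single genes of other lists met the call without EEP 1, where 0.854% of all genes were called higher and 1.69% lower. Klf2, Axin2 and Chrm3, all higher, were each the 1 call in lists of 24, 19 and 17 tested genes. The same fit called 1 gene lower in each of 3 lists: 16 foreign-body macrophage, 21 hypoxia and glycolysis, and 21 lysosome genes. Without AS 1, Klf2, Axin2 and Chrm3 did not pass (adjusted p = 0.298, 0.380 and 0.330). Klf2, a transcription factor of quiescence in endothelium and T cells, was at 52.3, 133 and 137 CPM in EEP and 183, 125 and 118 CPM in CP, against 36.8, 60.4 and 39.5 CPM in AS (log2 fold change 1.45, SE 0.373, adjusted p = 0.122, and 0.0222 without EEP 1). Axin2, a feedback target of Wnt signalling, was at 35.8, 147 and 93.4 CPM in EEP and 55.6, 61.6 and 169 CPM in CP, against 24.1, 26.7 and 48.4 CPM in AS and 23.3, 37.5 and 34.3 CPM in normal tissue (1.5, SE 0.460, adjusted p = 0.166, and 0.0366 without EEP 1). EEP 1 was the 1 patched library under the highest AS value for both genes. Chrm3, the muscarinic receptor that drives contraction, was at 7.51 to 36.7 CPM in patched libraries, against 2.18, 3.07 and 5.53 CPM in AS (2.16, SE 0.567, adjusted p = 0.122, and 0.0348 without EEP 1), in the opposite direction to the contractile proteins. Of 19 Wnt genes 10 were higher and 9 lower, of 20 TGF-beta genes 12 and 8, and of 20 growth factor genes 13 and 7, with medians of 0.03, 0.14 and 0.29 and none called in the full fit. Fgf9, a stromal growth factor, was at 8.10, 1.2 and 0 CPM in EEP and 8.80, 3.69 and 2.66 CPM in CP, against 0.670, 0.192 and 0.198 CPM in AS (3.45, adjusted p = 0.183), and normal tissue held 10.9, 3.20 and 8.15 CPM.

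**Figure D3:**
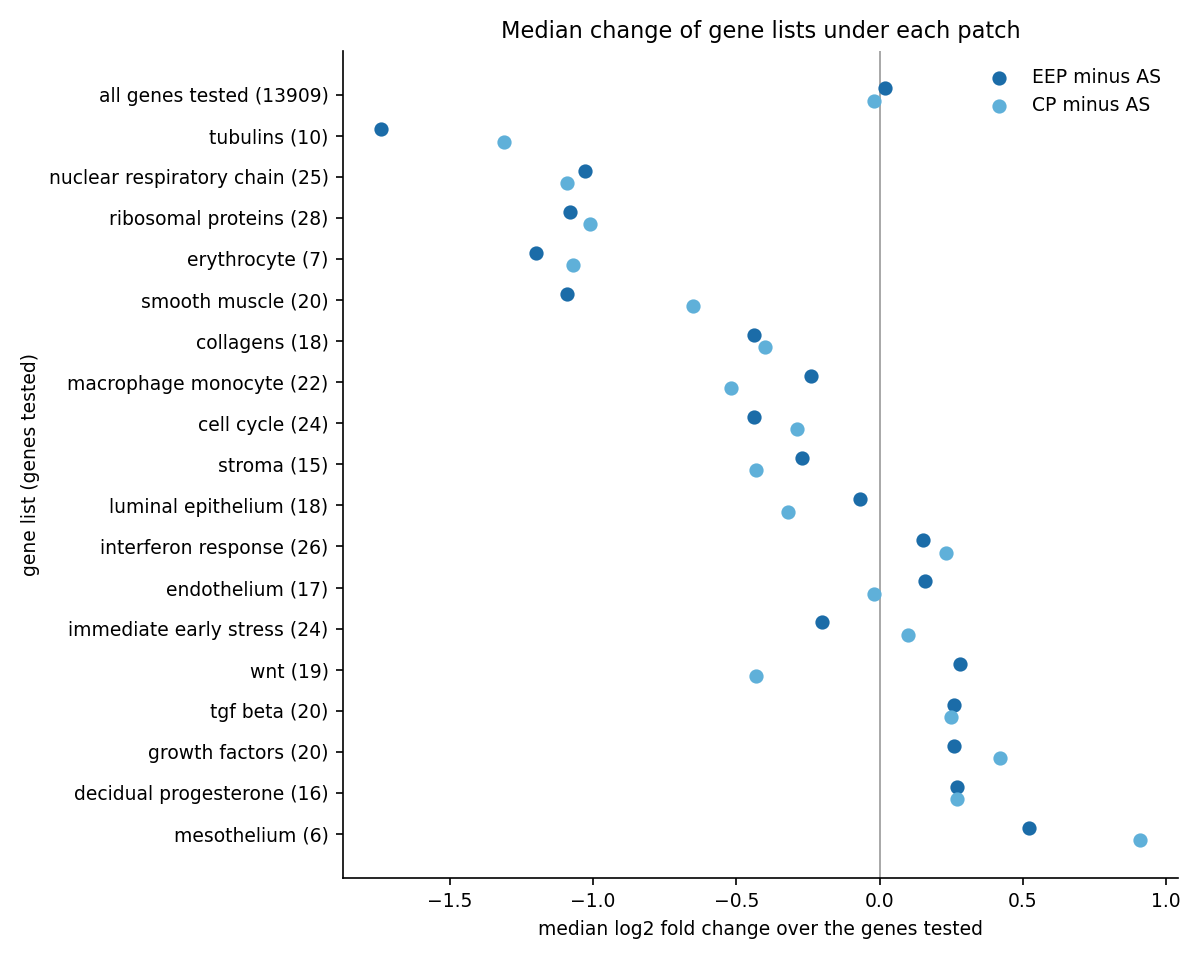
Median log2 fold change over AS of the tested members of each gene list, with EEP above CP in each row and the number of genes tested in brackets. Among the lists plotted, tubulins, the respiratory chain, ribosomal proteins, smooth muscle and erythrocyte genes have medians below -0.5 under both patches, and the median over all genes lies at 0.02 in EEP and -0.02 in CP; both sets of medians share the 3 AS libraries.

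Set against normal tissue, the genes that met the rule on separation mostly stood past the normal level. Of the 239 higher genes, 213 were also higher in patched than in normal tissue (median 0.90 on the log2 scale), and 196 (82.0%) had a normal mean between the AS and the patched means. In 26 genes, Fam111a and Itgb8 among them, the normal mean was above the patched one. Of the 268 lower genes, 258 were also lower than in normal tissue (median -0.86), and 235 (87.7%) had a normal mean in between. Over all tested genes the normal mean lay between the AS and patched means in 38.1%. The genes were chosen for a distance between AS and patched libraries, so a normal mean inside that distance follows in part from the choice, and the shares were not tested. Against normal tissue 1 of the 239 (0.418%) and 2 of the 268 (0.746%) passed, against 0.0791% of all genes tested. The patched libraries enter both the rule and this comparison.

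**Figure D4:**
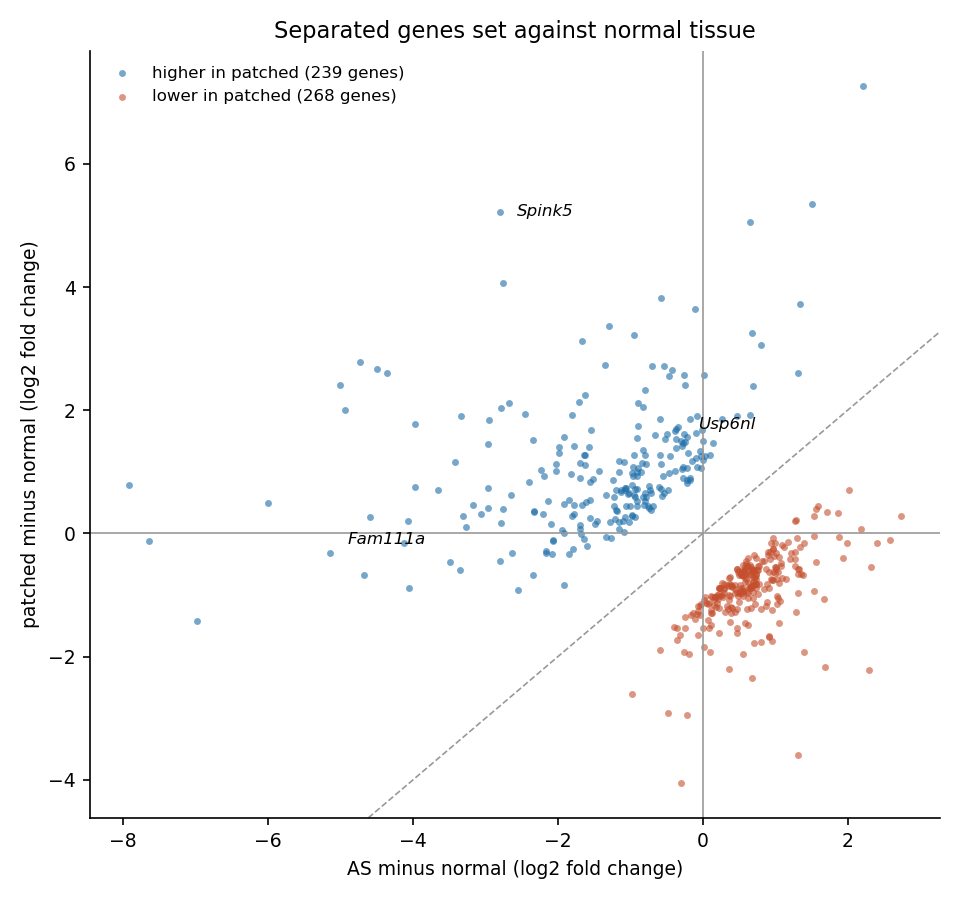
Log2 fold change over normal tissue of the 507 genes that met the rule on separation, with AS minus normal on the x axis and patched minus normal on the y axis; blue points were higher in patched than in AS tissue and red points lower, and the dashed line marks equal values. Most blue points lie above 0 on the y axis and most red points below it, while Fam111a lies near 0.

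In patched against normal tissue 11 genes were called (0.0791%), 4 higher (0.0288%) and 7 lower (0.0503%). The count was 520 without EEP 1 and 68 without AS 1, and 1 to 6 without EEP 2, EEP 3, CP 2, CP 3, normal 1 or normal 3. Igfbp7, a secreted protein that binds insulin-like growth factors, was at 267, 80.6 and 147 CPM in EEP and 193, 193 and 149 CPM in CP, against 1905, 557 and 2256 CPM in normal tissue (log2 fold change -3.20, adjusted p = 0.00407). It was at 386, 339 and 235 CPM in AS, closer to the patched than to the normal level. It overlaps Polr2b, so its counts are uncertain. Orm1, an acute-phase plasma protein, was at 0 to 1.2 CPM in patched libraries, against 20.8, 139.5 and 32.4 CPM in normal tissue and 0, 11.1 and 28.3 CPM in AS (-6.55, adjusted p = 0.00977). Abcb1b, a drug efflux pump, was at 2.18 to 6.74 CPM in patched libraries against 112, 4.10 and 229 CPM in normal tissue, so that normal 2 lay in the patched range (-4.64, adjusted p = 0.00977). Cyp2f4 and Fabp5, a cytochrome P450 and a fatty acid binding protein, were likewise high in normal 1 and normal 3 and not in normal 2.

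Acsbg1, an acyl-CoA synthetase, and Tspan18, a tetraspanin, were lower than in both normal and AS tissue. Tspan18 was at 18.5, 14.3 and 26.3 CPM in EEP and 19.1, 20.5 and 28.2 CPM in CP, against 75.4, 105 and 54.9 CPM in normal tissue (-1.89, adjusted p = 0.0123) and 57.1, 45.9 and 53.8 CPM in AS (-1.31, adjusted p = 0.0913). Ap3b2, an adaptor subunit of vesicle coats known from neurons, was higher than both. It was at 17.1, 26.7 and 36.4 CPM in EEP and 31.2, 14.4 and 20.7 CPM in CP, against 2.00, 4.20 and 2.49 CPM in normal tissue (3.06, adjusted p = 0.0380) and 1.84, 9.78 and 3.76 CPM in AS (2.25, adjusted p = 0.0993). Ap1s1, a subunit of another vesicle adaptor, was at 36.2 CPM in EEP 1 and 109 to 209.5 CPM in the other patched libraries, against 21.6, 22.0 and 22.3 CPM in normal tissue (2.48, adjusted p = 0.0355). Its AS libraries, at 78.0, 62.0 and 77.1 CPM, lay above normal tissue and EEP 1 and below the other patched libraries. Iqcn and the MHC class I gene RT1-A3 were called higher as well (5.71 and 2.60, adjusted p = 0.0355 and 0.0356), and no gene was called higher when EEP 2, EEP 3, CP 2, CP 3, normal 1 or normal 2 was left out.

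No difference between the patches passed the test. EEP over AS gave 2 calls, Fam111a and Spink5 (0.0144%), and CP over AS 1 (0.00719%). These comparisons share the AS libraries. Spink5, with 1 count over the AS libraries, passed the low-count filter through the patched libraries. Its call and its difference between the patches are therefore a description only. Among genes that met the rule on separation, Spink5 was higher in EEP than in CP by 3.00 on the log2 scale (SE 0.754, unadjusted p = 0.00101, adjusted p = 1.0). Pcp4, a calmodulin-binding protein, was lower in both patches than in AS, at 59.5, 109 and 33.8 CPM in EEP and 86.0, 150.4 and 191 CPM in CP, against 654, 238 and 223 CPM in AS (log2 fold change -1.82, and -1.09 without AS 1), and lower in EEP than in CP by a log2 difference of -1.08 (adjusted p = 1.0). Arrdc3, an arrestin-family adaptor, was at 23.9, 17.1 and 21.7 CPM in EEP and 86.2, 22.3 and 19.2 CPM in CP, against 5.02, 11.1 and 6.13 CPM in AS, with CP 1 far above the other patched libraries. With 3 libraries a patch and this spread, a p that misses the threshold does not show that the patches act alike.

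Genes separated under both patches differed in how much of the genome they span. The median span was 32727 bases for the 239 higher genes and 9661 bases for the 268 lower genes, against 22653 bases over all genes tested. Of the higher genes 23 were long noncoding RNAs (9.62%) and of the lower genes 2 (0.746%), against 5.05% of all tested. The higher genes were also less abundant, with a median log2 CPM of 2.47, against 4.13 for the lower genes and 3.15 over all tested. In the bin of genes with the shortest of 5 ranges of span the median log2 fold change was -0.24 in EEP and -0.27 in CP over AS, and in the bin with the longest it was 0.23 in both. In pooled patched against AS tissue these medians were -0.23 and 0.25, and without AS 1 they were 0.02 and 0.20. Genes over 50000 bases took 22.3% to 31.4% of the nuclear counts in patched libraries, against 15.3%, 25.2% and 24.2% in AS 1, AS 2 and AS 3 (two-sided exact permutation p = 0.0595, adjusted p = 0.190 over 4 library measures). Ribosomal and respiratory genes are short, with median spans of 3140 and 7937 bases, and smooth muscle genes are not, at 28396 bases. The part of gene span in the differences described was not tested.

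**Figure D5:**
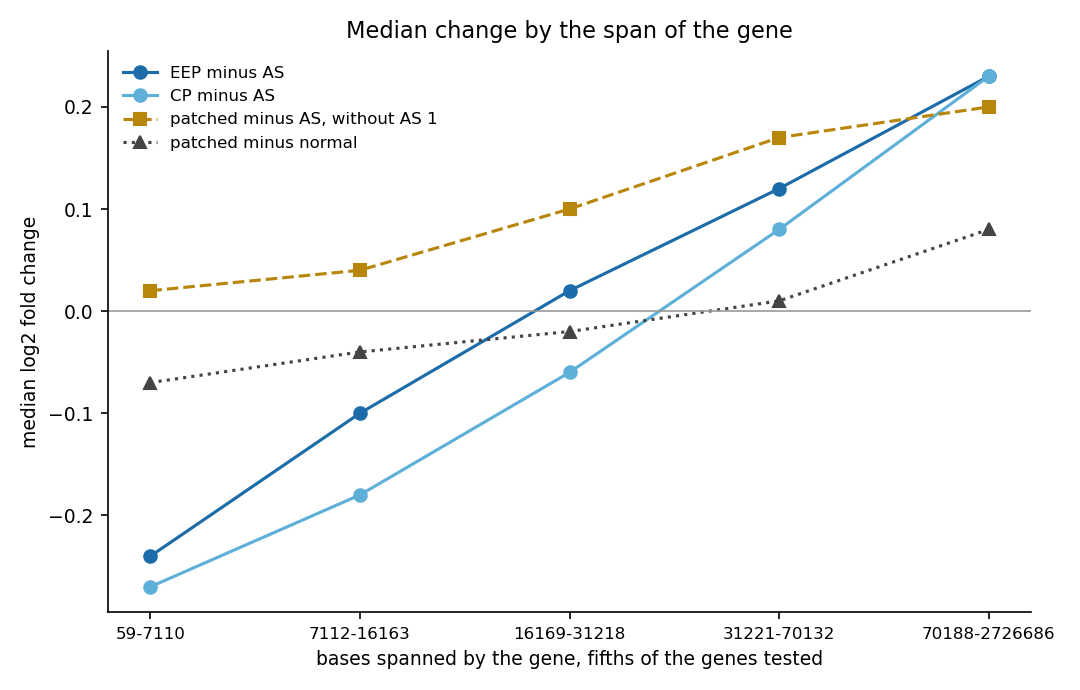
Median log2 fold change in 5 equal bins of the tested genes by the bases they span, short to long from left to right. Both patches over AS run from below 0 to above 0, the slope is smaller without AS 1, and patched over normal tissue stays between -0.07 and 0.08.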

How the data were processed

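The study measured RNA of rat uterine tissue by QuantSeq 3' mRNA sequencing (Lexogen kit, 1000 ng of total RNA, single-end reads of 75 bp). The authors deposited a table of raw, whole-number counts for 34034 genes. Reads were aligned with Bowtie2 and counted with bedtools, per the submitters' processing notes, which name the mouse build mm10; the deposited information sheet instead gives mRatBN7.2, used here for coordinates, and rat symbols. Whether counting used strand is not given in the sources used here.

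All values were computed from the raw counts. Of the gene identifiers, 31680 matched RefSeq's GRCr8 table, used for promoters alone. After TMM scaling and the filterByExpr filter, 13909 genes were tested (edgeR 4.0.16, R 4.3.3). One quasi-likelihood fit held all 12 libraries in 3 groups (patched, AS, normal); EEP and CP were compared in a fit of 4 groups. A call required an adjusted p (Benjamini-Hochberg) under 0.05. The biological coefficient of variation was 58.8%. A count of 3 corresponds to 0.177 to 0.867 CPM. Intervals and floors cover counting error only. Simulated counts with known changes were used to check the calculation of the fit. They held no outlying library such as EEP 1 or AS 1, so they do not show how the fit performs on these data. Whether replicate numbers pair libraries across groups is not known, and groups were treated as independent.

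The comparison, the gene lists and the rules were chosen with earlier results of these data known. The text names up to 12 genes per direction by p-value, filled from the separated genes, up to 3 members of each list, up to 4 genes per direction for EEP against CP and up to 5 for patched against normal; genes outside this rule are described as named after their values were seen, or mark the edge of the separation rule. The alternatives were RLE scaling, DESeq2 1.42.0, 2 other count filters, other thresholds, other ways of pooling and choosing samples, the replicate block, the mitochondrial genes removed or their share as a covariate, and each library left out; leaving out EEP 1 with CP 1 was chosen after seeing the data.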

Additional observations from a re-analysis of the deposited data

How the results depend on the processing

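The count of genes called in patched against AS tissue was 1 under RLE scaling, the stricter filter, only the compared groups, a threshold of 0.01 and with mitochondrial genes removed. It was 415 with DESeq2, 175 with no filter, 4 with the 4-group average, 71 at an adjusted p under 0.10, 259 with the mitochondrial covariate, and 353 without EEP 1 and CP 1. With 1 library left out it ran from 1 to 364, with 364 without EEP 1, 7 without AS 1, 5 without CP 1, 4 without AS 2 and 1 otherwise. Genes separated under both patches numbered 842 at a log2 difference of 0.5, 227 at 1.5 and 1311 without EEP 1 and CP 1, and 517 to 1118 with 1 library left out (1023 without EEP 1, 812 without AS 1, 1118 without AS 2, 953 without AS 3); fewer AS libraries make the rule easier to meet. Patched against normal calls were 355 with DESeq2, 261 with no filter, 20 with only the compared groups, 3 and 51 at thresholds of 0.01 and 0.10, 519 without EEP 1 and CP 1, and 1 to 520 with 1 library left out. EEP against CP gave 1 call with DESeq2, 5 with no filter, and 0 with any library left out. Between same-numbered libraries of different groups the 18 correlations of deviations from group means were -0.103 to 0.39, with the own number best in 8. In EEP against CP the own number was best for replicates 1, 2 and 3, at correlations of 0.0636, 0.0127 and 0.113. The highest correlation, 0.39, was between EEP 1 and AS 1, both described as standing apart, and the next was 0.136 between EEP 2 and AS 2. The labels do not tie libraries to animals, so these values cannot decide whether libraries share an animal. With the replicate number as a block the counts were 3, 507, 43 and 0. The median over all genes in patched against AS shifted from 0.03 to 0.18 with no filter and to 0.12 to 0.14 without an AS library. For the 65 named genes that the text compares between patched and AS tissue, 1429 values over 22 other settings were computed. Of these 1214 kept their direction and side of the threshold, 214 passed it where the full fit did not, and 1 reversed: Hba-a1, at 0.93 without AS 1, in a range of -1.61 to 0.93 with 1 library left out. The separation rule has no value of its own under the 4-group average or DESeq2. The cause of these changes was not tested, and depth limits genes near 1 CPM.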
